A study of Mus musculus with 10 samples.

Results

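TEAD proteins are the DNA-binding end of the Hippo pathway, and 9 genes of that pathway were examined for binding of the related HMG-box factors SOX15 and SOX2 in mouse embryonic stem cells. The genes were Tead1, Tead2, Tead3, Tead4, Yap1, Wwtr1, Lats1, Lats2 and Vgll4, 9 of 21631 protein-coding genes on the 20 chromosomes that carry peaks. A peak was assigned to a gene when its summit, the base of highest signal, lay inside the gene body or within 50 kb of it, in mm10 with RefSeq gene positions. Across the 5 ChIP libraries 15 peaks met this rule, 5 from SOX15 and 10 from SOX2. The genes were picked by name, with earlier results of these data known.

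The data are ChIP-seq peak lists, which give the places where chromatin bound by a factor was enriched. Each factor carried an HA tag knocked into its own gene, and the cells grew in 2i/LIF, a medium that keeps embryonic stem cells in the naive state. There were 3 SOX15-HA ChIP libraries and 2 SOX2-HA ChIP libraries, along with 5 inputs whose values were not analysed here. All groups shared the cell type, the medium and formaldehyde crosslinking; the number of knock-in clones and whether replicates were separate cultures are not given in the sources used here, so differences between replicates may be technical. The SOX15 lists held 217, 672 and 437 peaks in replicates 1, 2 and 3, against 2676 and 4817 peaks in SOX2 replicates 1 and 2. For each peak the authors gave a fold enrichment over background and a q-value. Folds can be compared only within a list, so folds at the 9 genes are given with their percentile among the peaks of the same library. Read depth is unknown, and a gene without a peak may carry signal under the caller's threshold.

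In the Hippo pathway, the kinases LATS1 and LATS2 phosphorylate the coactivators YAP1 and TAZ (the product of Wwtr1) and keep them out of the nucleus. When the kinases are inactive, YAP1 and TAZ enter the nucleus and bind TEAD1 to TEAD4, which recognise a short DNA motif and activate transcription. VGLL4 competes with YAP1 for TEAD proteins. In the early mouse embryo TEAD4 and YAP1 direct the outer cells towards trophectoderm, while LATS1 and LATS2 restrain them in the inner cells that give rise to embryonic stem cells.

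Promoter sequences of 7 of the 9 genes, in 11 windows, were matched in the RefSeq table of GRCm38.p6, which has the coordinates of mm10. Tead1 and Tead4 were not matched. No peak of the 5 libraries overlapped any of the 11 windows. The windows below run 5′ to 3′ along the gene, with 250 bases before the start and 30 after it; the windows searched run to 50 after it. They are shown because Lats2 is the member with peaks of both factors, and its 2 starts lie at different distances from them, while Tead3 and Yap1 carry the TEAD motif at their own starts. Capitals mark CATTCC, the core of the TEAD motif, or ATTGT, the core of the SOX motif, on either strand.
Lats2 inner start, chr14:57734389-57734668, minus strand: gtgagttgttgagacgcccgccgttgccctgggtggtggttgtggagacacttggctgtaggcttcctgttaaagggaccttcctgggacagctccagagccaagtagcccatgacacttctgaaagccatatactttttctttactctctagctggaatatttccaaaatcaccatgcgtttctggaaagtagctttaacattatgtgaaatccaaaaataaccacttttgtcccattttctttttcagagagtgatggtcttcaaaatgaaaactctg
Lats2 outer start, chr14:57746094-57746373, minus strand: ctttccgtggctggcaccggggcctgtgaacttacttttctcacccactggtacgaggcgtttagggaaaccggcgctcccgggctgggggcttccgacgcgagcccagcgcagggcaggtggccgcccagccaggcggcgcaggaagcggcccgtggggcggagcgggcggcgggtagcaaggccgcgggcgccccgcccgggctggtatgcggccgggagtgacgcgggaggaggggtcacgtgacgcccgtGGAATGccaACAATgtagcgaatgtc
Tead3 middle start, chr17:28350571-28350850, minus strand: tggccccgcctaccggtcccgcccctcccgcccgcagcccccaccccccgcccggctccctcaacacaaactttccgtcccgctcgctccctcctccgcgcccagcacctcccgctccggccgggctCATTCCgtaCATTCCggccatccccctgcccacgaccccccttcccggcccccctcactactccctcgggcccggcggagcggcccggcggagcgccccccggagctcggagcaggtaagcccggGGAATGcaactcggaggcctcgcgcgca
Yap1 start, chr9:8004567-8004846, minus strand: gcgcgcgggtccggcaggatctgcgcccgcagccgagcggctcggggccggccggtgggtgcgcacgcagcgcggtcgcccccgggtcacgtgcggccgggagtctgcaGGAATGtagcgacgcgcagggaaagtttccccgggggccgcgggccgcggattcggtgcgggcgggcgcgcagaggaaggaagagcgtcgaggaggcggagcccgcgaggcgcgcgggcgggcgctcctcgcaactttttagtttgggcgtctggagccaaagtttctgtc

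The inner start of Lats2, the one nearer to the peaks, held neither motif and had a GC content of 42.7%. The outer start had a GC content of 71.7% and held CATTCC and ATTGT, both as their reverse complements, 4 and 13 bases past the start. Tead3 held CATTCC at positions -123 and -114 from the middle start and, on the other strand, at position 2. CATTCC was found in 7 of the 11 windows, belonging to 5 of 7 genes (Tead3, Yap1, Wwtr1, Lats2 and Vgll4). The same letters were present in 14.7% of the 32851 windows in the table. That share is per window; a share per gene over all genes was not computed, and genes with several windows have more chances of a match. The 2 Wwtr1 windows overlap and share 1 match. ATTGT was found in 2 of the 11 windows, against 31.0% of all windows. The octamer half-site ATGCAAA and the composite of ATTGT followed by ATGC, with at most 1 base between, were in none of the 11 windows, against 4.63% and 0.262% of all windows. These matches describe the letters of the windows and do not show binding; the sequence under the peaks was not used here.

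Of the 9 genes, Tead3 was the one with a reproducible SOX15 region, a region being the merged overlapping peaks of a factor and reproducible when at least 2 libraries called it. Among all protein-coding genes 2.26% had such a SOX15 region within 50 kb. Reproducible SOX2 regions were found at 3 of the 9 genes (33.3%), Tead1, Tead2 and Lats2, against 14.2% of all protein-coding genes. Lats2 was the gene with peaks of both factors. A reproducible SOX2 region and a peak of any SOX15 library within 50 kb, not necessarily at the same site, were found at 3.14% of all genes. With single-library peaks included, SOX15 had a peak at 2 of the 9 genes and SOX2 at 3, against 8.11% and 26.0% of all genes. Tead4, Yap1, Wwtr1, Lats1 and Vgll4 had no peak of any library within 50 kb, as had 70.4% of all genes. The members are long, with a median of 72.6 kb against 17.3 kb over all protein-coding genes, and a longer gene has a larger window to hold peaks. Of the 3 members of at least 100 kb (Tead1, Wwtr1 and Vgll4), 0 had a reproducible SOX15 region and 1 a SOX2 region, against 1.15% and 27.2% of all 2427 genes of that length.

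**Figure D1:**
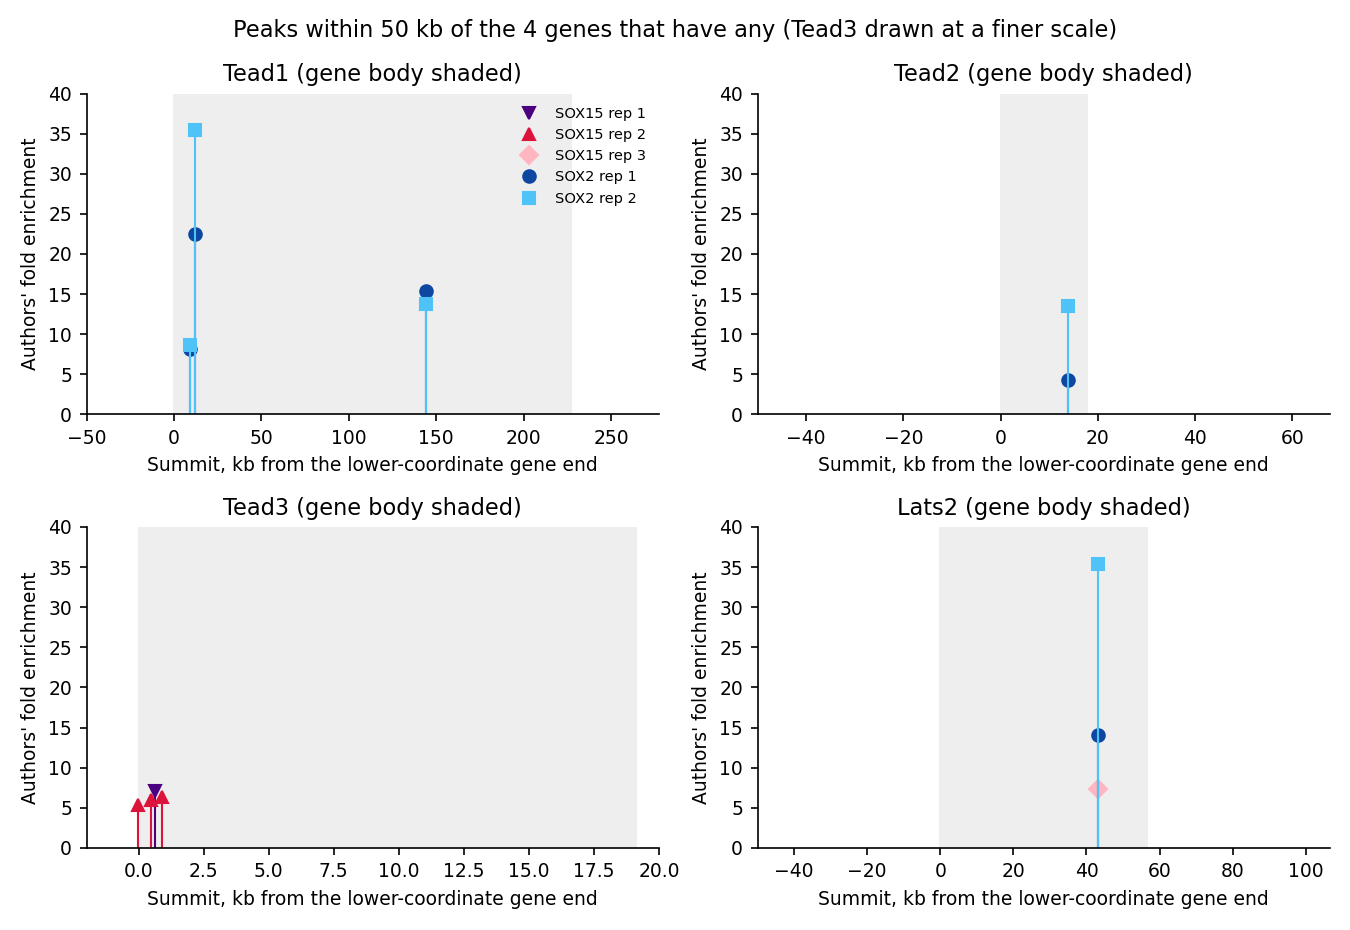
Positions and strength of the 15 peaks at Tead1, Tead2, Tead3 and Lats2: the x axis is the distance of the summit from the lower-coordinate end of the gene in kb, the y axis the authors' fold enrichment, with 1 marker per peak, coloured by library. Tead1 shows 3 SOX2 sites and no SOX15 marker, Tead3 shows SOX15 markers at one edge of the gene alone, and at Lats2 the markers of 3 libraries share 1 position.

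Tead1, a TEAD gene broadly expressed in the mouse embryo, had the most SOX2 regions. The gene spans chromosome 7, 112679356 to 112906784, and all 3 of its SOX2 regions lay inside the gene body. The strongest (112690996 to 112691704) had no peak in the 3 SOX15 libraries, against folds of 22.5 and 35.4 in SOX2 replicates 1 and 2. These folds stand at the 95.3 and 99.1 percentile of their lists, ranks 126 of 2676 and 42 of 4817. The −log10 q-values were 70.1 and 133, and the summits of the replicates lay 14 bp apart. By mean percentile the region was number 71 of the 2369 reproducible SOX2 regions.

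The other Tead1 regions were weaker. One, 2.67 kb from the strongest summit in replicate 1 and 2.69 kb in replicate 2 (112688431 to 112688843), had folds of 8.13 and 8.58 in SOX2 replicates 1 and 2, near the middle of either list (46.6 and 52.4 percentile). The third lay 132 kb further into the gene (112823547 to 112823959), with folds of 15.4 and 13.8 and percentiles of 86.7 and 82.0. Both SOX2 libraries thus gave the 3 regions the same order of fold. The nearest other protein-coding genes were Parva, 97.0 kb from the first of these summits, and Rassf10, 130 kb from the last. At least 3 reproducible SOX2 regions within 50 kb were found at 0.707% of all protein-coding genes, and at 2.18% of those of at least 100 kb. The nearest SOX15 peak to Tead1 was 67222, 2178 and 5198 kb away in SOX15 replicates 1, 2 and 3.

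Tead2, a TEAD gene active early in mouse development, had 1 SOX2 region, and the replicates ranked it very differently. No SOX15 library had a peak within 50 kb of the gene (chromosome 7, 45215792 to 45233468). The SOX2 folds were 4.33 in replicate 1 and 13.5 in replicate 2, at the 1.40 and 81.4 percentile. The summits agreed within 18 bp and lay 13.9 kb from the start of Tead2 in the promoter table and 3.80 kb inside its far end. Cd37, a gene of a leukocyte surface protein, was the next protein-coding gene, at 3.97 kb in replicate 1. In SOX15 replicates 2 and 3 the nearest peak was 224 kb away, closest to the ferritin gene Ftl1.

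Tead3, a TEAD gene known for its expression in placenta, was the one member with SOX15 peaks and no SOX2 peak. Its 4 peaks crowded at the 3′ end of the gene, which runs on the minus strand (chromosome 17, 28331671 to 28350805). SOX15 replicate 1 had 1 peak with a fold of 7.14 (41.0 percentile of its list). SOX15 replicate 2 had 3 peaks with folds of 5.29, 5.95 and 6.35 (49.8, 62.5 and 68.3 percentile), and SOX15 replicate 3 had none nearer than 1072 kb. The reproducible region (28331956 to 28332383) joins the peak of replicate 1 to the second peak of replicate 2, whose summits lay 162 bp apart. It was number 137 of the 200 reproducible SOX15 regions by mean percentile. The nearest SOX2 peaks were 337 kb away in replicate 1 and 116 kb away in replicate 2.

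The SOX15 peaks at Tead3 also lie next to Rpl10a, a gene of a cytosolic ribosomal protein. Rpl10a (28328471 to 28331033) ends 638 bp from Tead3 and runs on the plus strand, so the 3′ ends of the genes face each other. The SOX15 summits lay 610 to 1547 bp beyond the end of Rpl10a, at least 3.08 kb from its starts, and 17.8 to 18.7 kb from the nearest start of Tead3. Of the 89 genes with symbols of the Rpl or Rps series, 7 (7.87%) had a reproducible SOX15 region at a distance of 2 kb or less. Over all protein-coding genes the share was 0.777%. Both shares include the region at Tead3, which counts for Rpl10a and for Tead3. Leaving out peaks within 2 kb of a ribosomal protein gene removes all the SOX15 peaks at Tead3. No member then had a reproducible SOX15 region, as follows from the distances above. The call also needs SOX15 replicates 1 and 2 together, and the count is 0 without either. To which of the neighbouring genes the peaks relate was not tested.

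Tead4, the TEAD gene required for the trophectoderm lineage in mouse, had no peak within 50 kb in any library. Its nearest SOX15 peaks were 3066, 1085 and 3066 kb away in replicates 1, 2 and 3, against 165 and 145 kb for SOX2 replicates 1 and 2. Medians were also taken over all protein-coding genes on chromosomes with peaks of the library. They were 6865, 1214 and 2085 kb for SOX15 replicates 1, 2 and 3, and 320 and 171 kb for SOX2 replicates 1 and 2. Distances at this and the other members are read against these medians. Among the TEAD genes, then, Tead1 and Tead2 had SOX2 regions, Tead3 had SOX15 peaks and Tead4 had neither.

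**Figure D2:**
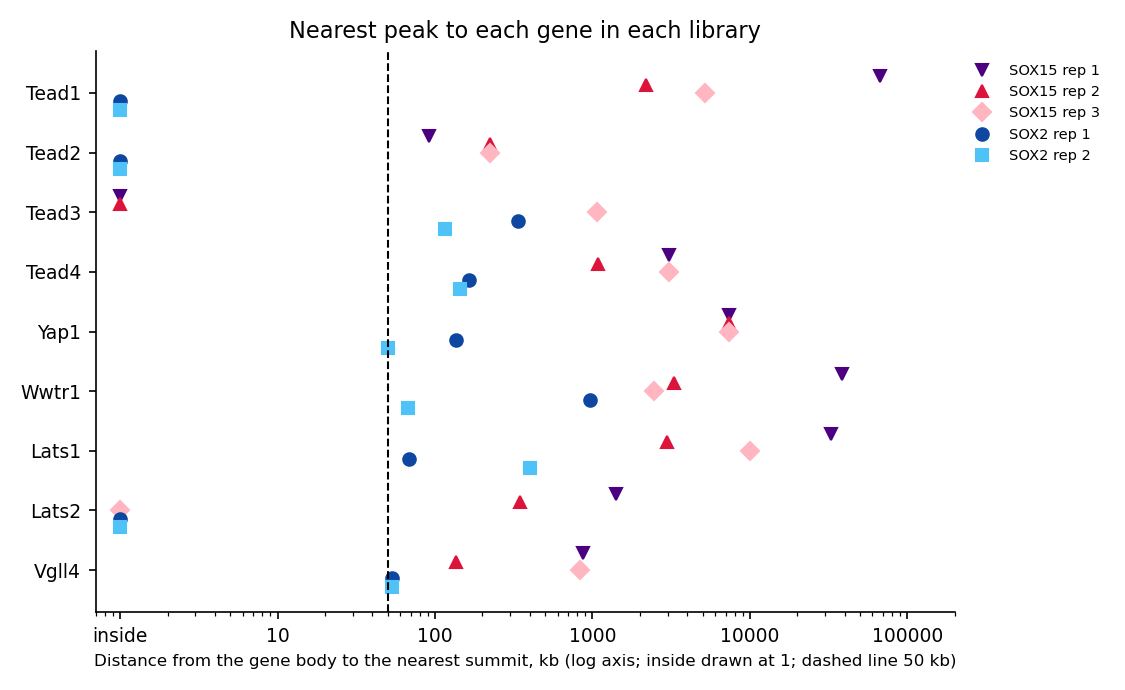
Distance from each of the 9 genes to the nearest summit in each library, on a log axis in kb, with 1 marker per gene and library; markers at the left edge are peaks inside the gene body and the dashed line is 50 kb. SOX2 markers of Yap1 (50.5 kb, replicate 2) and Vgll4 (53.0 and 52.9 kb) fall just right of the line, while most SOX15 markers lie far beyond it. The median over all protein-coding genes was also far beyond the line for SOX15, at least 1214 kb in each library.

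The genes of the coactivators had no peak within 50 kb. Yap1 (chromosome 9, 7931999 to 8004638) missed the limit narrowly, since SOX2 replicate 2 had a peak 50.5 kb away with a fold of 8.17 (48.0 percentile). That peak lay nearer to Cfap300 than to Yap1, and SOX2 replicate 1 had none within 135 kb. The 3 SOX15 libraries had their nearest peak 7313 kb from Yap1, at 1 common site. Wwtr1, the gene of TAZ (chromosome 3, 57455644 to 57575910), had its nearest SOX15 peaks 38644, 3294 and 2465 kb away in replicates 1, 2 and 3. For SOX2 they were 961 kb away in replicate 1 and 67.5 kb away in replicate 2, where the peak had a fold of 4.36 (2.68 percentile).

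The kinase genes differed from each other. Lats2 had peaks in 3 of the 5 libraries at 1 site inside the gene (chromosome 14, 57689662 to 57746212). SOX15 replicate 3 had a fold of 7.35 there, at the 65.4 percentile, and SOX15 replicates 1 and 2 had no peak. SOX2 replicates 1 and 2 had folds of 14.03 and 35.4, at the 84.0 and 99.1 percentile. The SOX2 region (57732636 to 57733197) was number 234 of 2369, and its summits lay 9 bp apart. The SOX15 summit lay 56 and 65 bp from the SOX2 summits, inside the SOX2 region. The site was 1.49 to 1.55 kb downstream of the inner start of Lats2 whose sequence is given above, in the direction of transcription, and 13.2 kb from the outer start in SOX2 replicate 2.

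Lats1, which encodes the paralogous kinase, had no peak within 50 kb (chromosome 10, 7681200 to 7716461). Its nearest SOX15 peaks were 32542, 2973 and 10007 kb away in replicates 1, 2 and 3, against 68.7 and 398 kb for SOX2 replicates 1 and 2. The SOX2 libraries thus called no common site near Lats1 as they did at Lats2.

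Vgll4 (chromosome 6, 114860621 to 114970007) had no peak within 50 kb, but a reproducible SOX2 region lay just outside that limit. The nearest SOX15 peaks were 869, 136 and 835 kb away in replicates 1, 2 and 3. The SOX2 peaks were 53.0 kb away in replicate 1, with a fold of 9.20 (58.9 percentile), and 52.9 kb away in replicate 2, with a fold of 9.81 (63.5 percentile). They lay nearer to Tamm41, a gene of mitochondrial lipid synthesis, than to Vgll4. With a limit of 100 kb Vgll4 joined the other 3 genes with a SOX2 region.

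**Figure D3:**
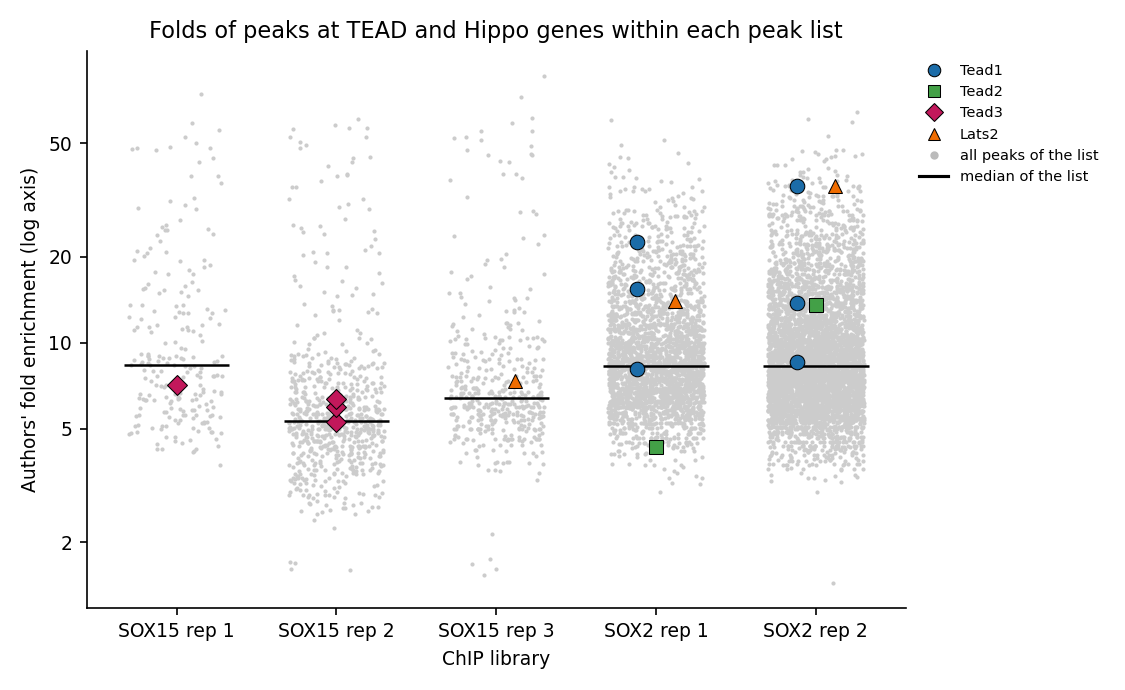
Fold enrichment of every peak in each of the 5 lists (grey, log axis), with the peaks at Tead1, Tead2, Tead3 and Lats2 in colour and a black line at the median of each list. In the SOX2 lists the leading Tead1 peak has a fold of 22.5 and 35.4 and Lats2 14.03 and 35.4, above the medians of 8.31 in both; the SOX15 peaks lie close to their medians of 8.34, 5.32 and 6.41.

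The standing of the peaks within their own lists overlapped between the factors. The mean percentile of member peaks was 41.0, 60.2 and 65.4 in SOX15 replicates 1, 2 and 3, from 1, 3 and 1 peaks. It was 62.8 and 82.8 in SOX2 replicates 1 and 2, from 5 peaks each. SOX15 replicate 3 was thus above SOX2 replicate 1, and no order of the factors is drawn from these few peaks. The SOX2 replicates differed most at Tead2, with its 1.40 percentile in replicate 1 and 81.4 in replicate 2.

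Each SOX15 library had a peak at 1 of the 9 genes (11.1%) and each SOX2 library at 3 (33.3%). Over all protein-coding genes the shares were 2.29%, 5.78% and 4.26% for SOX15 replicates 1, 2 and 3, and 15.5% and 24.9% for SOX2 replicates 1 and 2. Over the 5 libraries this difference gave p = 0.1 in a two-sided exact permutation test, the smallest p that 3 against 2 libraries allow. The libraries differ in list length, and as a share of the list the order was the opposite. Peaks at the 9 genes made up 0.461%, 0.446% and 0.229% of the SOX15 lists (mean 0.379 ± 0.130, SD, n = 3) and 0.187% and 0.104% of the SOX2 lists (mean 0.145 ± 0.059, SD, n = 2). The difference of 0.233 points gave p = 0.2 (two-sided exact permutation test). With 0.1 the smallest p possible, the test could not decide whether the shares differ. The difference rests on the peaks beside Rpl10a: without peaks within 2 kb of a ribosomal protein gene it was -0.066 points (exact permutation test, p = 0.6). The share in SOX15 replicate 1 rests on 1 peak, with an exact binomial 95% interval of 0.0117 to 2.54%; this covers counting error alone.

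SOX15 was seen at 1 of the 5 reproducible SOX2 regions of these genes, the one in Lats2 (20%, exact binomial 95% interval 0.505 to 71.6). The interval treats the 5 regions as independent, although 3 of them lie in Tead1. Over all 2369 reproducible SOX2 regions 190 (8.02%) overlapped a peak of any SOX15 library. The strongest Tead1 region and the Lats2 region both belong to the 236 highest-ranked reproducible SOX2 regions. Of these 236, SOX15 replicate 3 had a peak at 85 (36.02%), replicate 1 at 13 (5.51%) and replicate 2 at 12 (5.08%). The SOX15 peak at Lats2 is thus from the library that most often called such regions, and without SOX15 replicate 3 the count at these genes was 0 of 5. The strongest Tead1 region had no SOX15 peak in that library either.

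All 5 SOX2 regions at the genes lay inside gene bodies. The body was 227 kb of the 327 kb searched at Tead1, 56.6 of 157 kb at Lats2 and 17.7 of 118 kb at Tead2. Whether the regions lay in exons or introns was not analysed here. Of the Lats2 and Tead2 regions, the Lats2 region was the one within 2 kb of its own gene's listed start. Tead1 has no listed start, so its regions could not be placed in this way. On chromosomes with starts in the promoter table, 46.2% of 195 reproducible SOX15 regions lay no more than 2 kb from any listed start, against 9.35% of 2288 reproducible SOX2 regions. The SOX15 region at Tead3 lay more than 3 kb from the starts of both Tead3 and Rpl10a.

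Genes with a peak pattern like that of Tead1 were looked for over all protein-coding genes. The measure was the distance between genes in the highest fold percentile within 50 kb in each of the 5 libraries, counted as 0 without a peak. The closest 5 were Sh2d4b and Tspan14, which share their peaks, then Bcat1, Mpped2 and Gm11639, at distances of 1.10, 1.10, 1.14, 1.19 and 1.30 percentile points. That all 5 had no SOX15 peak and SOX2 percentiles between 94.5 and 99.9 follows from how they were picked. Among all protein-coding genes 8.11% had a peak of any SOX15 library within 50 kb. Of 21630 genes compared, 116 were within 5 points of Tead1, with genes that share a peak each counted. The measure takes the highest percentile alone and leaves out the number of regions at a gene.

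**Figure D4:**
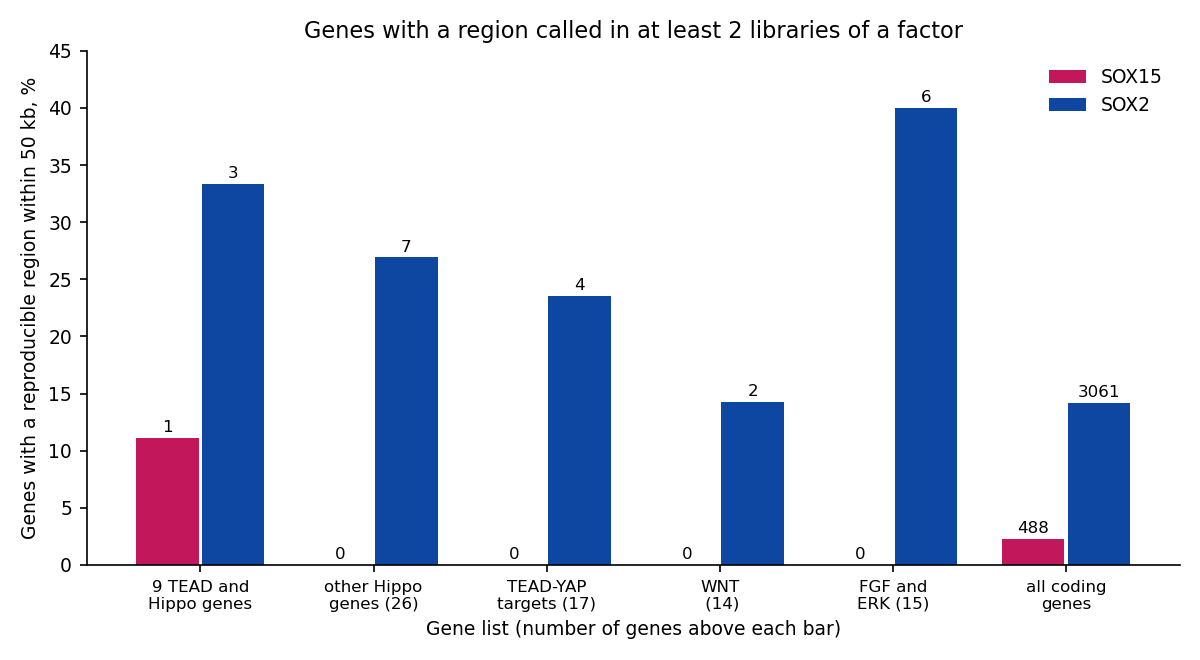
Percentage of genes with a reproducible SOX15 or SOX2 region within 50 kb in the 9 TEAD and Hippo genes, other gene lists and all protein-coding genes, with the number of such genes above each bar. The 9 genes show 1 gene for SOX15 and 3 for SOX2; in the other 4 lists SOX15 has 0 and SOX2 between 2 and 7 genes.

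Counts in the rest of the pathway are read against the shares over all protein-coding genes, 2.26% with a reproducible SOX15 region and 14.2% with a SOX2 region. Of 26 other Hippo genes, 0 had a SOX15 region and 7 (26.9%) a SOX2 region, namely Stk3, Mob1b, Nf2, Wwc1, Wwc2, Map4k4 and Stk38. Of 17 TEAD and YAP target genes, 0 had a SOX15 region and 4 (23.5%) a SOX2 region, namely Ccn2, Id3, Myc and Lats2, the last being a member as well. For comparison, 0 of 14 WNT effector and feedback genes had a SOX15 region and 2 (14.3%) a SOX2 region. Of 15 FGF and ERK signal genes 0 had a SOX15 region and 6 (40%) a SOX2 region. At the all-gene share of 2.26%, a count of 0 for SOX15 in lists of this size is near the background. With so few genes in a list the SOX2 counts describe the lists, and the differences between them were not tested.

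Among the other Hippo genes and the TEAD and YAP targets, and apart from the one in Lats2, the highest-ranked SOX2 regions were at the targets Id3 and Myc. Their standing is given as the mean over the SOX2 replicates of the percentile of fold. At Id3, which encodes an inhibitor of basic helix-loop-helix factors, a region 1.53 kb from the gene (chromosome 4, 136146686 to 136147194) had folds of 20.5 and 23.5 in SOX2 replicates 1 and 2 (mean percentile 94.5). Myc, a growth-promoting transcription factor gene, had a region 6.24 kb away (chromosome 15, 61978888 to 61979357). Its folds were 16.6 and 20.5 (mean percentile 91.0). A weaker reproducible region 22.4 kb from Myc had folds of 5.99 and 12.5 in SOX2 replicates 1 and 2 (mean percentile 46.6). SOX2 replicate 2 alone had a further peak 20.4 kb from Myc, with a fold of 5.65 (12.6 percentile). Ccn2, a widely used YAP target gene, had folds of 6.38 and 9.22 (mean percentile 39.97) at a region 4.68 kb away (chromosome 10, 24590542 to 24590947). Among upstream components, Nf2, the gene of the tumour suppressor merlin, had folds of 10.2 and 10.9 (mean percentile 69.2) at a region inside the gene (chromosome 11, 4806055 to 4806562). Wwc2, a gene of the KIBRA family of LATS activators, had folds of 9.99 and 12.9 (mean percentile 72.4) inside the gene (chromosome 8, 47920796 to 47921179). Stk3, which encodes the MST2 kinase that activates LATS1 and LATS2, had folds of 8.25 and 6.42 (mean percentile 36.2) inside the gene. Map4k4, which encodes a kinase that can take its place, had folds of 7.98 and 7.58 (mean percentile 43.004). Stk38, the gene of a kinase related to LATS, had folds of 5.90 and 3.92, near the bottom of the lists (mean percentile 7.15). The regions counted for Mob1b (folds 12.6 and 21.4, mean percentile 86.5, 41.3 kb away) and Wwc1 (folds 9.63 and 10.7, mean percentile 66.5, 49.7 kb away) lay nearer to Grsf1 and Pank3. None of the regions of these 10 genes overlapped a SOX15 peak, and over all reproducible SOX2 regions the share was 8.02%, so a count of 0 among so few is near the background.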

How the data were processed

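The authors deposited 1 peak list for each ChIP sample, so peaks were called per sample; the submitters' processing notes list Bowtie2, MACS2, deepTools and the build mm10 and give no versions. The deposited values per peak are a fold enrichment (a linear ratio), the p-value and q-value as −log10, a summit offset and an integer score, which in every peak of the 5 lists was the −log10 q-value times 10 without its decimals. The sources used here do not name the control used to call peaks. Depth is unknown, since no read counts come with the lists.

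Peaks of a factor were merged at 1 bp of overlap. A region was reproducible with peaks in both SOX2 libraries or in at least 2 of the 3 SOX15 libraries. Genes and promoter windows came from RefSeq tables of GRCm38.p6. Percentiles are ranks of fold within a list. Libraries were compared by an exact permutation test over 10 splits, and the peak assignment was tested on simulated data. Named genes were the members, the 10 other pathway or target genes with the highest-ranked reproducible regions, neighbours of member peaks and the 5 genes most like Tead1; Ftl1, Cfap300, Tamm41 and the genes near single-library peaks were named after their values were seen. The members and lists were chosen with earlier results of these data known. Peaks beside ribosomal protein genes were left out in an alternative chosen after seeing the data. The motif search planned at summits was made in promoter windows alone, as no genome was used here. The work used matplotlib 3.10.9, scipy 1.17.1, pandas 2.3.3 and numpy 2.4.6 under Python 3.11.15.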

Additional observations from a re-analysis of the deposited data

How the results depend on the processing

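Limits of 10 kb, 0 kb or the nearest gene alone, stricter q-values and merging at 50% overlap left the counts at 1 gene with a reproducible SOX15 region and 3 with a SOX2 region. Counting regions of any library gave 2 genes for SOX15 (Tead3 and Lats2). Leaving out peaks within 2 kb of a ribosomal protein gene gave 0 for SOX15 and turned the difference in share of the list, SOX15 minus SOX2, to -0.066 points. With a limit of 100 kb the mean percentile of SOX2 peaks was 57.9, against 72.8 within 50 kb, as weaker peaks entered. Leaving out 1 library at a time, the SOX15 count ranged from 0 to 1, the SOX2 count was 3, the share of SOX2 regions with a SOX15 peak ranged from 0 to 20%, the difference in share from 0.192 to 0.308 points, and the mean percentiles from 50.6 to 62.8 for SOX15 and from 62.8 to 82.8 for SOX2. With 1 SOX2 library left out, every peak of the other was counted, whereas SOX15 still needed 2 libraries, so the SOX15 and SOX2 counts are not comparable in stability. With a block for replicate numbers 1 and 2, which the labels do not say pair the libraries, the difference was 0.308 points (exact sign flips, p = 0.5, the smallest 2 pairs allow); this too was chosen after seeing the data. Apart from the alternatives named here, the cause of these changes was not tested. Unknown depth limits each statement that a gene had no peak.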

Other observations

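Peaks called in a single library lay near other pathway and target genes. SOX15 replicate 2 had a peak inside Wwc2 with a fold of 4.32 (25.97 percentile of its list), apart from the SOX2 region there, and one 32.8 kb from Gata3, a trophectoderm transcription factor gene, with a fold of 3.59 (13.7 percentile). SOX15 replicate 3 had a peak 34.4 kb from Stk4, the gene of the MST1 kinase, with a fold of 5.12 (21.4 percentile), nearer to Wfdc12. SOX2 replicate 2 alone had 2 peaks inside Ptpn14, the gene of a phosphatase that binds YAP1, with folds of 7.05 and 7.48 (33.7 and 39.98 percentile). It also had peaks 5.04 kb from Stk38l (fold 6.01, 17.5 percentile) and 48.4 kb from Taok1 (fold 5.51, 10.7 percentile); this last site is nearer to Nufip2. All of these lie under the median fold of their lists, and none was called in a second library of the same factor.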
